A study of Mus musculus with 6 samples.

Results

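The cytoplasmic ribosomal protein genes were examined in female and male mouse blastocysts. Members were all array features whose single gene symbol in the platform annotation names a protein of the large (Rpl) or small (Rps) subunit, leaving out the kinases whose symbols start with Rps6k. The rule found 58 probes for 52 genes, of 21446 features that gave 18606 tested rows (8973 named genes and 9633 unnamed rows). Of these genes 46 encode subunits of the ribosome itself, called core members here (31 of the large and 15 of the small subunit). The remaining 6 carry a similar name only: Rpl7l1, Rpl39l, Rps27l and Rps4l are paralogs, Rpl37rt is a retrogene, and Rps19bp1 encodes a protein that binds a ribosomal protein. Of the core members 4 lie on the X chromosome (Rps4x, Rpl10, Rpl39 and Rpl36a) and 42 on autosomes (28 large, 14 small). Another 15 features carry a matching symbol beside a second one and were not counted. Probes for ribosomal proteins can also bind the transcripts of processed pseudogenes and paralogs, and the probe sequences were not analysed here.

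Each sample was a pool of over 200 whole embryos of a single sex at E3.5, untreated, with 3 independent preparations per sex. Both sexes had the same parents by strain: B6C3F1 mothers aged 8 weeks, given 5 IU each of 2 gonadotropins 48 h apart, and XGFPY fathers. Embryos were flushed as 4-cell stages 55 h after the second hormone and then grown for 38 h in kSOM medium, and every pool's RNA was extracted with 1 µg of yeast tRNA as carrier. Female and male RNA of a preparation shared an array, once in each dye orientation, so that 2 groups of 3 arrays resulted. The way the embryos were sexed was not described in the labels.

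Ribosomes are built from ribosomal RNA and from about equal numbers of copies of each ribosomal protein, and nearly all ribosomal protein genes are strongly transcribed in growing cells. Their transcripts share a pyrimidine run at the start that couples their translation to mTOR signalling. The blastocyst is the stage at which embryos grow rapidly and at which, in female mouse embryos, the X chromosomes are being brought to the dosage of males.

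All values are log2 ratios of female over male, averaged over both dye orientations of a preparation, and given with the SD over preparations (n = 3). The array signals themselves were not used, so levels of expression, and with them the defining markers of the blastocyst's cell types, could not be read. In whole embryos a lower ratio from fewer cells of a type and one from less RNA per cell cannot be told apart. The number of arrays limits the precision.

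The direction of the preparation labelled 3 was checked first. Xist, which is made from an X chromosome undergoing inactivation, stood at 2.25, 2.09 and -1.55 in preparations 1, 2 and 3 as labelled, and the Y-linked Eif2s3y at -1.75, -1.76 and 1.93. Both genes go against the labels of preparation 3. Each result is therefore given as labelled and with the sign of preparation 3 turned, and any direction that rests on the turned reading rests on those genes. The base of the logarithm (10) and the direction of the deposited ratios (Cy5 over Cy3) are not stated with the table and were assumed; under this direction Xist and Eif2s3y match the labels in preparations 1 and 2.

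Of the X-linked members 3 had the largest mean ratios of all members with preparation 3 turned, and the start regions of these 4 genes are shown for that reason. Each stretch runs from 100 bases before the RefSeq start to 20 bases past it (RefSeq, GRCm38.p6, 5′ to 3′ on the gene's strand), and capitals mark the letters TATAA, as in a TATA box, or GGGCGG, as in a GC box, on either strand. The letters TATAA lie past the annotated start in Rpl10 and Rpl36a and at the far upstream end of the stretch in Rpl39, none of which is the usual place of a TATA box.
Rps4x (chrX:102189372-102189491, minus strand): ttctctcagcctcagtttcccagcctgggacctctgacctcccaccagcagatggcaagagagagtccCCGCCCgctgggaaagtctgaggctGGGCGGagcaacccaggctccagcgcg
Rpl10 (chrX:74270716-74270835, plus strand): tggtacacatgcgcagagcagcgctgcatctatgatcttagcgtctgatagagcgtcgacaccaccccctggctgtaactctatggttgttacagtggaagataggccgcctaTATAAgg
Rpl39 (chrX:37085203-37085322, minus strand): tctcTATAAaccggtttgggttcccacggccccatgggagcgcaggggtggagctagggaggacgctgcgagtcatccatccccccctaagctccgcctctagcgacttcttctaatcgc
Rpl36a (chrX:134585554-134585673, plus strand): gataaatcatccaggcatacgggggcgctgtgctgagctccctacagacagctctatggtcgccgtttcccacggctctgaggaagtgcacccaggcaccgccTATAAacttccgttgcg

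In windows of 300 bases around the start, 36 of 46 core members had an entry, with 44 windows. TATAA on either strand was found in 3 of the 4 X-linked windows and in 6 of the 40 autosomal ones, beside 24.9% of all 32851 windows in the table. GGGCGG was found in 61.4% of core members' windows, beside 35.7% of all windows. CCGGAAG, the core bound by ETS factors, was found in 34.1%, beside 8.86%, and the pyrimidine letters CTTTCC in 47.7%, beside 26.6%. CTTTCC was counted anywhere in the window, so its share does not measure the pyrimidine run at the start of the transcripts. Both strands were searched, and no motif contains another, although matches can overlap at their ends. A match is a description of letters and not of binding.

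Rps4x and Rpl10 had the ratios of largest size among the members in each preparation, and Rpl39 came next in preparations 1 and 2; in the preparation labelled 3 the autosomal Rpl27 (-0.61) lay beyond Rpl39 (-0.50). Rps4x, a small subunit protein, had ratios of 0.73 (female in Cy5) and 1.10 (male in Cy5) on the arrays of preparation 1, of 0.72 and 0.91 in preparation 2, and of -1.15 and -0.56 in the preparation labelled 3. Rpl10, which joins the large subunit late in its maturation, had 0.49 and 1.22, then 0.83 and 0.76, then -0.88 and -0.57 in the same order. Rpl39, a short protein that lines the exit tunnel of the large subunit, had 0.17 and 0.93, then 0.50 and 0.57, then -0.71 and -0.29. All 3 genes were positive on the 4 arrays of preparations 1 and 2 and negative on both arrays of the preparation labelled 3. Rpl36a, a large subunit protein near the exit site for transfer RNA, did not keep to this: its arrays gave 0.35 and 0.19, then 0.53 and -0.59, then -0.31 and -0.38.

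As labelled, the opposite signs left means of 0.29 ± 0.99 for Rps4x, 0.31 ± 0.89 for Rpl10, 0.20 ± 0.60 for Rpl39 and -0.033 ± 0.31 for Rpl36a, and limma gave each an adjusted p of 1. In the turned reading Rps4x was at 0.86 ± 0.049 (1.82-fold), Rpl10 at 0.79 ± 0.063 (1.73-fold), Rpl39 at 0.53 ± 0.026 (1.44-fold) and Rpl36a at 0.19 ± 0.20 (1.14-fold). Over the 3 preparation means limma called none of the 52 members in either reading, where 0.0% of all rows were called. At an unadjusted p under 0.05 limma gave 0 members as labelled (2.6% of all rows) and 9 with preparation 3 turned (7.29% of all rows). All 6 arrays were then fitted with preparation 3 turned, a replicate block for their shared preparation and a term for the dye. There limma called Rps4x (adjusted p = 0.0122) and Rpl10 (adjusted p = 0.0397), but not Rpl39 (adjusted p = 0.0701) or Rpl36a (adjusted p = 0.735). That fit called 0.21% of all rows, and no autosomal member. In it the arrays of a preparation, which hold the same extracts, entered as separate observations. The block correlation was negative (-0.15), so the block did not lower their weight. Calls of that fit, here and below, thus rest partly on technical replicates. Positive values on all 6 arrays with preparation 3 turned were found for 5 members (2.29% of all rows): Rps4x, Rpl10, Rpl39 and the autosomal Rpl4 and Rpl6.

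Among 312 X-linked genes, 6 had a higher mean than Rps4x with preparation 3 turned, 9 than Rpl10, 30 than Rpl39 and 101 than Rpl36a. No autosomal gene of 8630 exceeded Rps4x or Rpl10 in that reading, 12 exceeded Rpl39 and 467 exceeded Rpl36a. As labelled, 88 autosomal genes exceeded Rps4x and 70 exceeded Rpl10. These ranks describe the 3 preparations and were not tested.

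The median of the 4 X-linked members lay above that of the 42 autosomal core members by 0.64 in preparation 1 and 0.63 in preparation 2, and below it by -0.60 in the preparation labelled 3. As labelled the mean difference was 0.23 ± 0.71 (exact sign-flip test over 3 preparations, two-sided, p = 0.5). In the turned reading it was 0.62 ± 0.024 (exact sign-flip test, p = 0.25, the smallest that 3 preparations allow). Without the preparation labelled 3 it was 0.64, and as labelled it was 0.019 without preparation 1 and 0.023 without preparation 2.

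**Figure D1:**
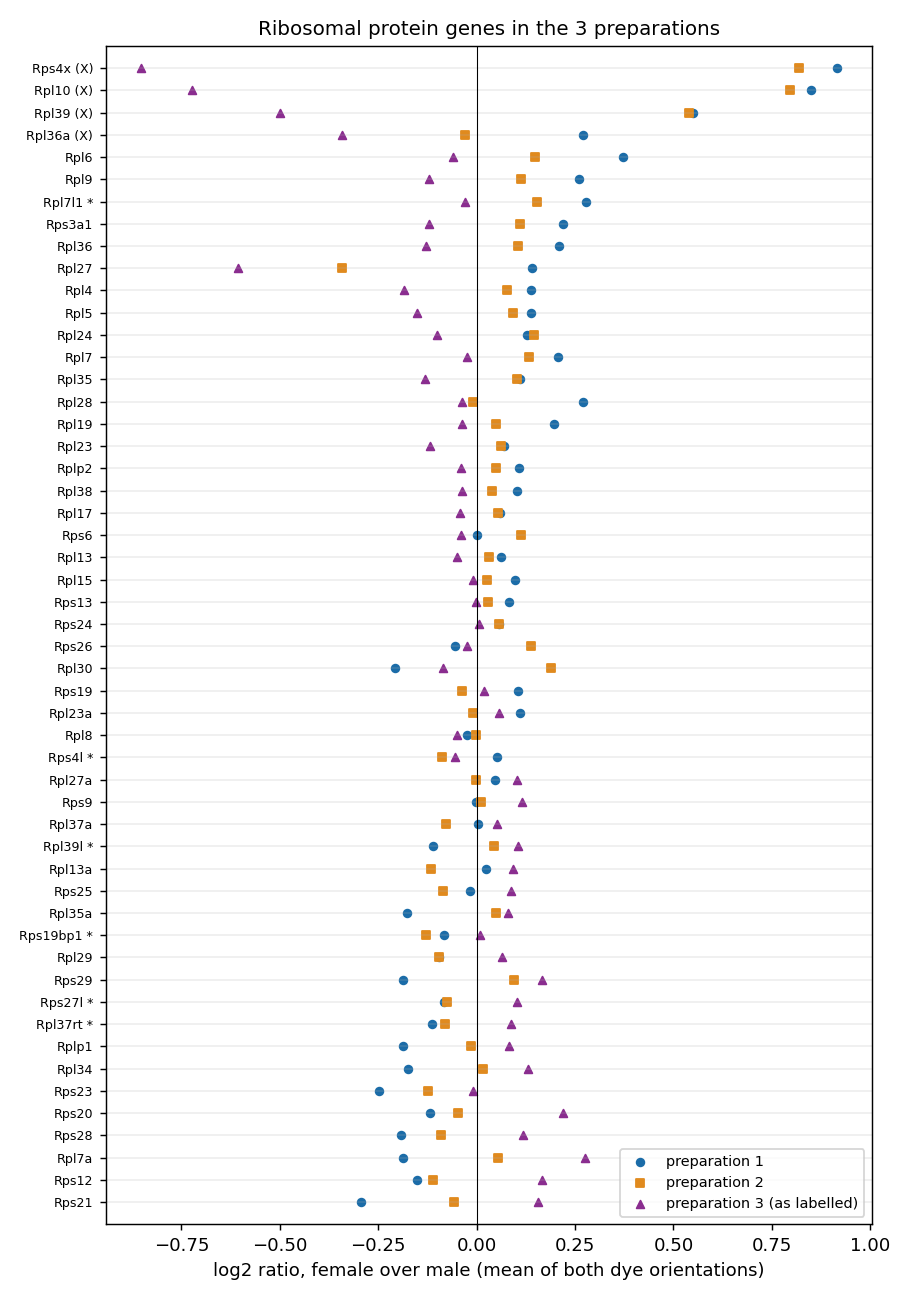
Log2 ratio of female over male (x axis) for all 52 members (y axis, ordered by the mean with preparation 3 turned), with 1 point per preparation and preparation 3 as labelled; X marks X-linked genes and the asterisk genes with a similar name only. Rps4x, Rpl10 and Rpl39 lie beyond 0.5 in preparations 1 and 2 and at or beyond -0.50 in the preparation labelled 3, while the other members lie closer to 0, apart from Rpl27 at -0.61 in the preparation labelled 3.

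The autosomal core members had ratios near 0. Their median was 0.059 in preparation 1, 0.035 in preparation 2 and -0.017 in the preparation labelled 3, beside 0.0056, -0.0014 and -0.00029 for all 8630 autosomal genes. The mean of the 3 medians was 0.026 ± 0.039 as labelled (exact sign-flip test, two-sided, p = 0.5) and 0.037 ± 0.021 with preparation 3 turned (exact sign-flip test, p = 0.25, the smallest possible). As labelled it was 0.0092 without preparation 1 and 0.047 without preparation 3. On single arrays the median ranged from -0.065 to 0.089, and it changed sign between dye orientations within preparations 1 and 3. The spread of members' means was an SD of 0.066 as labelled and 0.10 with preparation 3 turned, beside 0.11 and 0.13 for all autosomal genes.

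Signs agreed among preparations more often once preparation 3 was turned. As labelled, 1 of 42 autosomal core members was positive in all 3 preparations (2.38%, beside 9.98% of all autosomal genes) and 2 were negative in all 3 (4.76%, beside 9.21%). After turning, 18 were positive in all 3 (42.9%, beside 18.4%) and 7 were negative (16.7%, beside 17.7%). Across the 42 genes, ratios of preparations 1 and 2 correlated at r = 0.29, those of 1 and 3 at -0.57 and those of 2 and 3 at 0.039. Without Rpl27, whose ratio varies widely, the values were 0.43, -0.66 and -0.57. All 8630 autosomal genes, with none left out, gave -0.031, -0.31 and 0.086. Rank correlations, with no gene left out, were 0.38, -0.69 and -0.52 across the 42 genes. They were 0.12, -0.34 and -0.064 across all autosomal genes. These correlations are across genes, which share arrays and are not independent replicates.

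**Figure D2:**
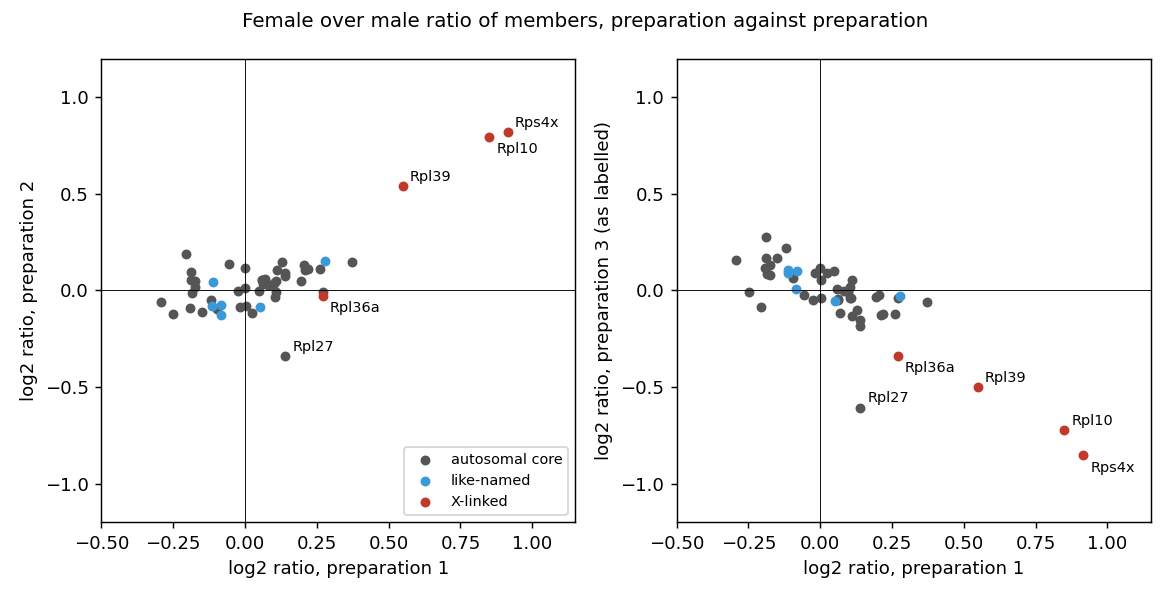
Log2 ratio of each member in preparation 1 (x axis) against preparation 2 (left) and the preparation labelled 3 (right), 1 point per gene. The autosomal core members (grey) fall along a rising cloud on the left (r = 0.29) and a falling one on the right (r = -0.57), with Rps4x, Rpl10 and Rpl39 at the ends and Rpl27 apart.

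The large and small subunits lay apart by a small amount in each preparation. The 28 large subunit genes had medians of 0.099, 0.049 and -0.039 in preparations 1, 2 and 3 as labelled, and the 14 small subunit genes -0.036, -0.013 and 0.053. In preparation 1 21 of 28 large subunit genes and 5 of 14 small subunit genes were positive, in preparation 2 19 and 7, and in the preparation labelled 3 9 and 9. Of all autosomal genes 51.7%, 49.2% and 49.7% were positive in the same order. The values overlapped widely: in preparation 1 the large subunit genes ran from -0.21 to 0.37 and the small subunit genes from -0.29 to 0.22.

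Large minus small was 0.14 in preparation 1, 0.062 in preparation 2 and -0.092 in the preparation labelled 3. As labelled the mean was 0.035 ± 0.12 (exact sign-flip test over 3 preparations, two-sided, p = 0.75), and it changed sign without preparation 1, to -0.015; without preparation 3 it was 0.098. In the turned reading it was 0.096 ± 0.037, positive in 3 of 3 preparations (exact sign-flip test, p = 0.25, the smallest possible). On single arrays with preparation 3 turned it was positive on 5 of 6: 0.16 and 0.036 in preparation 1, 0.19 and -0.095 in preparation 2, 0.028 and 0.21 in preparation 3, with the array labelled female in Cy5 first. After turning, 15 of 28 large subunit genes were positive in all 3 preparations (53.6%) and 2 were negative in all 3 (7.14%). Of 14 small subunit genes 3 were positive (21.4%) and 5 negative (35.7%). The shares of all autosomal genes were 18.4% and 17.7%.

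**Figure D3:**
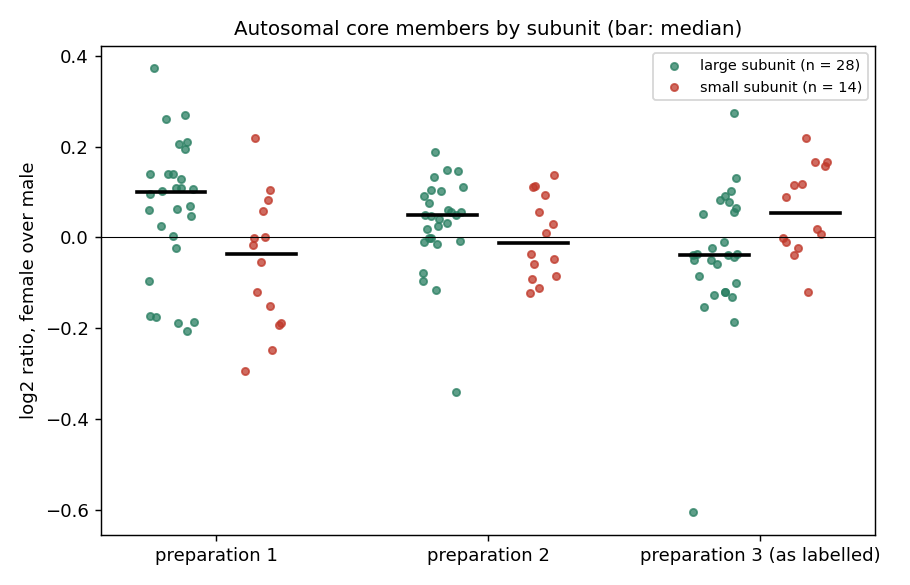
Log2 ratio of female over male (y axis) of the 28 large and 14 small subunit genes on autosomes in each preparation, 1 point per gene with bars at the medians, preparation 3 as labelled. The large subunit median is the higher one in preparations 1 and 2 (0.099 and 0.049) and the lower one in the preparation labelled 3 (-0.039), and the points overlap in all 3.

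No autosomal member passed limma's test, and those nearest to the threshold came from both subunits. With preparation 3 turned, 5 of 42 had an unadjusted limma p under 0.05 and a positive mean (11.9%, beside 3.67% of autosomal genes), and 1 had a negative one (2.38%, beside 4.67%). The positive ones were the large subunit proteins Rpl36 (0.15 ± 0.055), Rpl24 (0.13 ± 0.023), Rpl5 (0.13 ± 0.032) and Rpl9 (0.16 ± 0.083) and the small subunit protein Rps3a1 (0.15 ± 0.060), all with limma adjusted p from 0.664 to 0.670. Rpl5 binds a ribosomal RNA before it enters the large subunit. The value of Rpl5 rests on 1 probe. Features carrying Rpl5 beside Dipk1a, which were not counted, stood at 0.0066, -0.0033, 0.12 and -0.038 in the turned reading, and most did not share its value. The negative one was Rps12, a small subunit protein, at -0.14 ± 0.028 (limma adjusted p = 0.654). That value rests on 1 probe. Features carrying Rps12 beside Snora33, which were not counted, stood at 0.00097, 0.12 and 0.046 in the turned reading and did not share its negative sign. Rpl36 stood at 0.21 and 0.10 in preparations 1 and 2 and at -0.13 in the preparation labelled 3. Rps12 stood at -0.15, -0.11 and 0.17 in the same order, but its 6 arrays lay between -0.78 and 0.74 because the orientations differed.

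Next in order on the negative side, with preparation 3 turned, came Rps28 (-0.13 ± 0.053), Rps21 (-0.17 ± 0.12), Rps20 (-0.13 ± 0.086) and the retrogene Rpl37rt (-0.094 ± 0.018), none past the test (limma adjusted p from 0.685 to 0.700). Rps28 and Rps21 each lay at or below 0 on 5 of 6 arrays in that reading. As labelled, the smallest p-values belonged to other members: Rpl7l1 (0.13 ± 0.15), Rpl7 (0.10 ± 0.12), Rpl6 (0.15 ± 0.22), Rpl19 (0.069 ± 0.12) and Rpl23a (0.052 ± 0.060) on the positive side. On the negative side they were Rps23 (-0.13 ± 0.12), Rpl27 (-0.27 ± 0.38), Rps19bp1 (-0.068 ± 0.069), Rpl29 (-0.043 ± 0.093) and Rps28 (-0.056 ± 0.16), and limma gave all 10 an adjusted p of 1.

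As labelled, Rpl27, Rps23 and Rpl6 lay over 3 scaled median absolute deviations from the median of the autosomal core members. After turning, no autosomal core member did. Rpl27, a large subunit protein, gave 1.22 and -0.94 on the arrays of preparation 1, -0.83 and 0.15 in preparation 2, and -0.53 and -0.68 in the preparation labelled 3, so that only in the last did both orientations have 1 sign. Its mean was -0.27 ± 0.38 as labelled and 0.13 ± 0.47 with preparation 3 turned. Of the 2 probes of Rpl6, 1 gave 0.69 in preparation 1 where the other gave 0.052. Rps23, which helps to form the decoding centre of the small subunit, stood at -0.25, -0.12 and -0.010 with arrays reaching 1.03.

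The genes with a similar name stayed near 0. In the turned reading Rpl7l1 stood at 0.15 ± 0.12, Rps27l at -0.087 ± 0.014, Rpl39l at -0.058 ± 0.088, Rps4l at 0.0061 ± 0.082 and Rps19bp1 at -0.073 ± 0.060. The autosomal Rpl39l and Rps4l thus differed from their X-linked relatives Rpl39 (0.53) and Rps4x (0.86) in the same reading. No test of these pairs was made.

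Of the 52 genes, 6 had 2 probes each. After turning, the probes differed most for Rpl6 (0.054 and 0.33), Rps6 (0.15 and -0.048) and Rpl7 (0.21 and 0.032), and least for Rpl4 (0.14 and 0.13) and Rpl15 (0.038 and 0.050). The gap between the probes of Rpl6 was wider than the SD of its own mean over preparations (0.16).

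The dye effect, the mean Cy5 over Cy3 ratio of both orientations, does not depend on which sex a preparation is given, and for Rplp1 it was larger in size than the sex ratio of any member in either reading. Rplp1, an acidic protein of the ribosomal stalk, stood at -0.67, -1.02 and -1.37 in preparations 1, 2 and 3, Rps23 at -0.61, -0.92 and -1.04, and Rps12 at -0.20, -0.67 and -0.58. On the other side Rpl7l1 stood at 0.38, 0.51 and 0.26, Rpl38 at 0.36, 0.39 and 0.25, and Rpl30 at 0.33, 0.22 and 0.37. The 2 probes of Rpl7l1 differed, with means of 0.82 and -0.058. Rplp1 and Rps23 were the only autosomal core members with a mean dye effect over 0.5 in size (4.76%, beside 6.96% of autosomal genes).

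Across the 42 autosomal core members the dye effect of preparations 1 and 2 correlated at r = 0.39, of 1 and 3 at 0.68 and of 2 and 3 at 0.86, and across all autosomal genes at 0.43, 0.53 and 0.56. limma called no member for it (0.0% of all rows) and gave 11 of 42 autosomal core members an unadjusted p under 0.05 (26.2%, beside 21.1% of autosomal genes). Because a sex ratio is what remains after both orientations are averaged, Rplp1 had a sex ratio of -0.095 ± 0.086 with preparation 3 turned although its arrays reached -1.29 and 1.45. Median dye effects of the large subunit genes were 0.13, 0.069 and 0.012 in preparations 1, 2 and 3, and of the small 0.10, -0.033 and -0.041. Sex ratio as labelled and dye effect correlated across the 42 genes at r = 0.078, 0.56 and -0.21 in the same order. All autosomal genes gave 0.037, 0.025 and 0.022. The part of the dye in the gap between subunits was not tested.

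**Figure D4:**
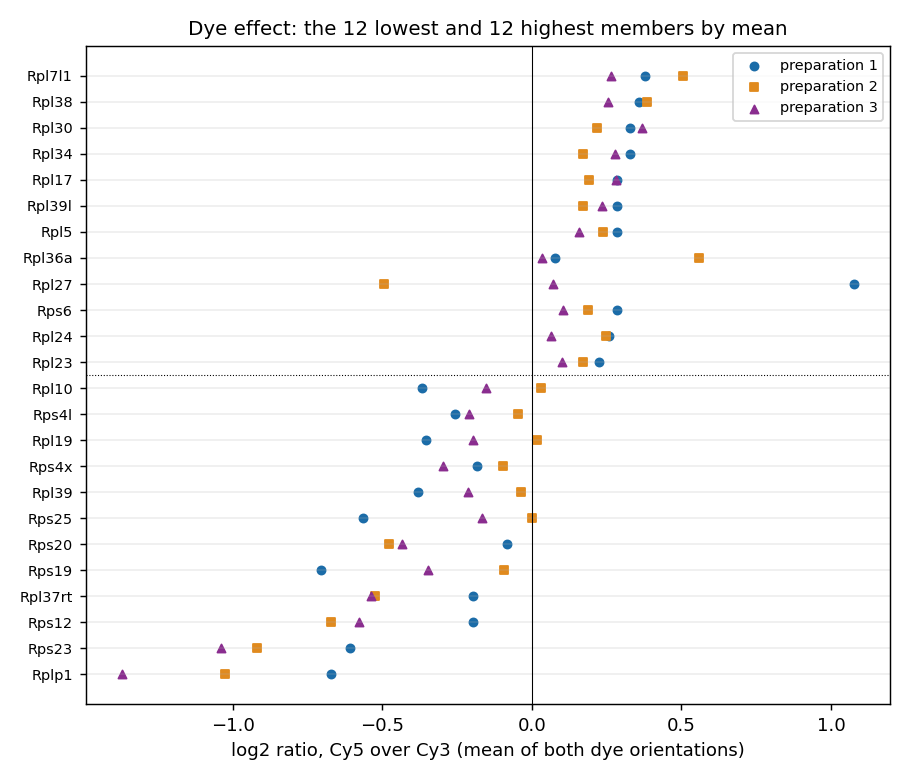
Dye effect (x axis, log2 ratio of Cy5 over Cy3, mean of both orientations) of the 12 lowest and 12 highest members by mean (y axis), 1 point per preparation. Rplp1 and Rps23 lie below -0.6 in all 3 preparations, and Rpl38 and Rpl30 above 0.2 in all 3, while Rpl27 runs from -0.49 to 1.08.

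Other genes of the translation machinery were read from lists chosen with earlier results of these data known. Over preparation means limma called none of the listed genes in either reading. Among 29 autosomal initiation factors 21 had a positive mean with preparation 3 turned, with a median of 0.043 beside 0.0034 for all autosomal genes (51.8% of which were positive); 5 had an unadjusted limma p under 0.05 and a positive mean and 1 a negative one (3.67% and 4.67% of autosomal genes). Eif3i stood at 0.19 ± 0.036, and the X-linked Eif1ax, which acts at start codon selection, at 0.60 ± 0.18. Eif4a3, which matches by symbol only and is not an initiation factor proper, stood at 0.20 ± 0.080. The Y-linked Eif2s3y, whose own values led to the turned reading, is no result in it.

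Among 11 elongation and release factors 9 had a positive mean with preparation 3 turned (median 0.059), with 1 at an unadjusted p under 0.05, Eef1d, an exchange factor subunit, at 0.18 ± 0.030. One of the 11, Eef1akmt1, matches by symbol only and encodes an enzyme that methylates an elongation factor. Among 32 autosomal ribosome assembly genes 22 were positive (median 0.050). An unadjusted limma p under 0.05 in either direction was found for 2 of the 32, beside 8.34% of all autosomal genes. Both had a positive mean, beside 3.67% of autosomal genes with such a p and a positive mean. None had such a p with a negative mean, beside 4.67%. The 2 genes were Gnl3 at 0.35 ± 0.13 and Nhp2 at 0.27 ± 0.18. The X-linked Dkc1, which modifies ribosomal RNA together with Nhp2, stood at 0.58 ± 0.078 (limma adjusted p = 0.513 on preparation means, and 0.0215 when the 6 arrays were fitted with the replicate block), and the X-linked Utp14a at 0.42 ± 0.045.

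Of the 55 mitochondrial ribosomal protein genes 28 were positive in the turned reading, and their median was 0.00017. Of them 5 had an unadjusted limma p under 0.05 with a negative mean, beside 4.67% of autosomal genes, and none with a positive one, beside 3.67%. Among the 5 were Mrpl23 at -0.30 ± 0.045 and Mrpl47 at -0.22 ± 0.042, and no difference between this list and the cytoplasmic genes was tested. The S6 kinase and mTOR list held 13 genes, 11 of them autosomal. Of these 11 genes 4 were positive, beside 51.8% of all autosomal genes. An unadjusted limma p under 0.05 with a negative mean was found for 2 of the 11, beside 4.67% of autosomal genes. No gene of the list had such a p with a positive mean, beside 3.67%. The 2 genes were Tsc1, a brake on mTOR, at -0.27 ± 0.039 and Rptor, a subunit of the mTOR complex, at -0.22 ± 0.094. As labelled no gene of the initiation, elongation, assembly or mTOR lists had an unadjusted limma p under 0.05, and 1 mitochondrial ribosomal protein gene did (1.73% of autosomal genes).

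**Figure D5:**
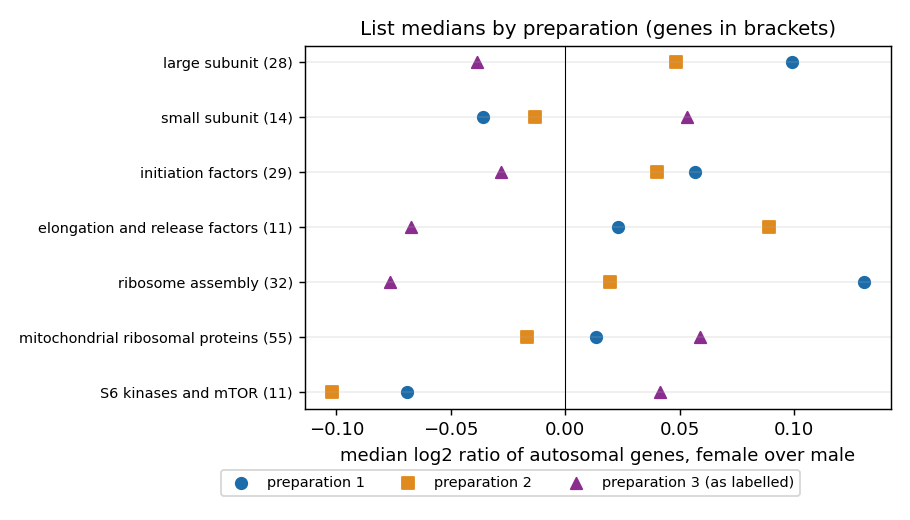
Median log2 ratio of female over male (x axis) of the autosomal genes of 7 lists (y axis, number of genes in brackets), 1 point per preparation, preparation 3 as labelled. The large subunit, initiation, elongation and assembly lists are above 0 in preparations 1 and 2 and below 0 in the preparation labelled 3; the small subunit and S6 kinase and mTOR lists lie the other way round.

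Markers of embryonic cell types were read in the same way, and limma called none on preparation means. With preparation 3 turned, 7 inner cell mass markers had a median of 0.13 (6 positive), led by Nanog at 0.39 ± 0.018. Nanog had a limma adjusted p = 0.536 on preparation means and 0.0393 with 6 arrays and the replicate block. In that reading 8 trophectoderm markers had a median of 0.16 (5 positive) and 5 primitive endoderm markers 0.043 (4 positive). Of all autosomal genes 51.8% were positive. The trophectoderm markers went both ways, from the keratin Krt7 at -0.34 ± 0.045 to Krt18, another keratin, at 0.28 ± 0.14 and Lgals3 at 0.52 ± 0.13. In preparations 1, 2 and 3 as labelled the inner cell mass median was 0.15, 0.11 and -0.11, the trophectoderm median -0.098, 0.23 and -0.10, and the primitive endoderm median 0.22, 0.036 and -0.00017. The autosomal core members' medians were 0.059, 0.035 and -0.017 in the same order. Their signs matched those of the inner cell mass median in each preparation and those of the trophectoderm median in preparations 2 and 3. They matched those of the primitive endoderm median in preparations 1 and 2. In preparation 3 that median (-0.00017) was too close to 0 for its sign to be read. Markers of carried-along cells were few: 2 of cumulus and granulosa cells had a median of 0.012, the single oviduct marker -0.051 and the 2 blood markers -0.21. The part of embryonic cell type makeup in the ratios of ribosomal protein genes was not tested.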

How the data were processed

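Female and male RNA of 3 preparations was hybridised on 6 two-colour Agilent arrays. The design text names Feature Extraction 7.5 for the scans and Luminator for combining arrays, without saying which of them gave the table. For each array the authors deposited a logarithmic ratio of every feature, without its base or direction, taken here as log10 because values end at -2 and 2. The ratio was read as Cy5 over Cy3, the direction in which Xist and Eif2s3y match the labels of 2 of 3 preparations, and it was multiplied by 3.32 to give log2. No source used here gives the background correction or dye normalization. Array medians lie near 0 and no centring was applied. Probes with 1 symbol (11813) were named through the platform annotation, with symbols updated by gene number from GRCm38.p6 (11782 matched); 559 carry several symbols and 9074 are not listed. Probes of a gene were averaged. The array with male RNA in Cy5 was turned in sign and averaged with its partner, since both hold the same extracts by their labels. That pairing is the replicate: in the 6-array fit the block correlation was -0.029 as labelled and -0.15 with preparation 3 turned. Ratios were tested against 0 with limma 3.58.1 in R 4.3.3 (lmFit, eBayes) and Benjamini-Hochberg adjustment over all 18606 rows at 0.05, checked on simulated data. Summaries over members were tested with an exact sign-flip test over preparations. The labels call the preparations independent but do not say whether they differ by day or parents.

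The members and lists were chosen with earlier results of these data known, as was turning preparation 3. Named were all X-linked members, the 5 members of smallest p in each direction and reading, those beyond 3 scaled median absolute deviations, the 3 with the largest dye effect in each direction, genes with a similar name, and those whose probes differ most. Rpl4, Rpl15, Rpl24, Rpl5 and Rpl9 were named after their values were seen. Rpl37rt was put with the genes of similar name because it is a retrogene.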

Additional observations from a re-analysis of the deposited data

How the results depend on the processing

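With labels kept, limma called 0 rows in most settings, but 628 with the arrays holding male RNA in Cy5 alone. With preparation 3 turned it called 39 with the replicate block and dye term and 3 among named genes only, a setting added after seeing the data; without replicate 1, 2 or 3 it called 0. The dye effect was called for 446 rows with arrays centred and for 0 otherwise. Single dye orientations, as labelled, changed several directions. With male RNA in Cy5 alone the autosomal members' median was -0.015, large minus small -0.089 and Rps23 0.73. With female RNA in Cy5 alone Rpl39 was -0.014 and Rpl36a 0.19. These means hold the preparation labelled 3 with its labelled sign. With preparation 3 turned, large minus small with male RNA in Cy5 was 0.036, -0.095 and 0.21 in preparations 1, 2 and 3. In that reading Rpl39 was positive on every array. Leaving out 1 preparation as labelled gave 0.0092 to 0.047 for the autosomal median, -0.015 to 0.098 for large minus small, 0.019 to 0.64 for X-linked minus autosomal, -0.017 to 0.87 for Rps4x and -0.19 to 0.12 for Rpl36a. With preparation 3 turned, Rpl36a was 0.19 and Rpl27 0.13 in each fit of all 3 preparations. Without replicate 1 they were 0.16 and 0.13, and without replicate 2 0.31 and 0.37. Without replicate 3 Rpl36a was 0.12 and Rpl27 changed sign, to -0.10. With the replicate block and dye term as labelled, large minus small was 0.0049, the autosomal median 0.025 and X-linked minus autosomal 0.22. The causes were not tested. Centring, probe medians, and including genes of similar name kept the direction of all 3 summaries over members. No member's feature held an exact 0 or a value at the table's limits, so leaving those out changed only the rows tested with them.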

Other observations

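The 15 features that carry a ribosomal protein symbol beside another symbol were left out of every count. Those listed for Rpl5 and Dipk1a, 4 in number, had ratios with preparation 3 turned of 0.0066, -0.0033, 0.12 and -0.038, and dye effects of 0.94, -0.088, -0.68 and -0.13, so features under the same pair of symbols differed in dye effect by more than in the sex ratio. The feature for Gm15421 and Rpl22l1 stood at 0.21, 0.24 and -0.30 in preparations 1, 2 and 3 as labelled, and that for 9430083M05Rik and Rpl22 at -0.31, -0.20 and 0.16. Rpl22l1 is a paralog of Rpl22, and the features of this pair had opposite signs in every preparation. They were singled out after their values were seen, and neither was tested as a named gene.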
